A study of Mus musculus with 6 samples.

Results

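Collagens and laminins are the chains from which fibrils, filaments and basement membranes are built. Every probe set whose platform annotation gave exactly 1 gene symbol of the form of a collagen chain (such as Col4a1) or a laminin chain (such as Lama1) was taken, whatever its values. This gave 101 probe sets of 45037, from 52 genes, of which 42 were collagen and 10 laminin genes. A level filter left 57 of these probe sets and 39 of the genes to be tested. The RNA came from cumulus-oocyte complexes, each an oocyte with the granulosa-derived cumulus cells around it, of wild-type immature female mice primed for 48 h with eCG, a gonadotropin that makes follicles grow. There were 3 groups of 2 arrays: eCG alone (no hCG), eCG then 8 h of hCG, the trigger of ovulation, and eCG then 16 h of hCG. Complexes were pooled before extraction, and about 8 µg of total RNA per array was made into biotin-labelled cRNA. Per the labels, the no hCG complexes came from ovaries and were called expanded, and those of both hCG times came from the oviduct. Hormone and place of collection therefore cannot be told apart, and the site at 8 h is in some doubt because ovulation is usually not complete by then. The p-values gauge the scatter of these arrays alone, which may be technical, because no label states that the 2 arrays of a group are from different animals or days.

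As background, collagen chains wind in threes into a triple helix. Types I, III, V and XI form fibrils, type IV forms the sheet-like network of basement membranes, and type VI forms beaded filaments. A laminin is a cross-shaped trimer of 1 alpha, 1 beta and 1 gamma chain, and its polymer is tied to type IV collagen by nidogen. Within the follicle the granulosa layer rests on a basement membrane that separates it from the theca, and patches of basement membrane material also lie between granulosa cells. Cumulus expansion after the ovulatory trigger deposits a matrix rich in hyaluronan, in which collagens and laminins are not the main scaffold.

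The start regions of 7 chains that the results turn on are shown first. They are RefSeq promoter windows on GRCm38.p6, from 250 bases before the start site to 50 bases from it on, and 38 of the 52 genes had a window that was used. Capitals mark matches on either strand to 5 motifs: CCAAT, the GC box GGGCGG, the TATA box TATAAA, the AP-1 site TGANTCA and the cAMP response element TGACGTCA, none of which contains another. The first pair, Col4a1 (chr8:11312777-11313076, minus strand) and Col4a2 (chr8:11312555-11312854, plus strand), rose together. The second pair, Col4a6 (chrX:141474027-141474326, minus strand) and Col4a5 (chrX:141475169-141475468, plus strand), is arranged the same way. Col1a2 (chr6:4505368-4505667, plus strand) and Col3a1 (chr1:45311288-45311587, plus strand) fell. Col24a1 (chr3:145292222-145292521, plus strand) was highest at 8 h.
Col4a1: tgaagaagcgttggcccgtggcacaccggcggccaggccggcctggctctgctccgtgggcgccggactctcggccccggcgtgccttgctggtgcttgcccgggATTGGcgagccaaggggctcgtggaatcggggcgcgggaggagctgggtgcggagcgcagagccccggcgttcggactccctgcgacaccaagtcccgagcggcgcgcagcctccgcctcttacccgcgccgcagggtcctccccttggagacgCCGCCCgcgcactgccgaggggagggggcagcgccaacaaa
Col4a2: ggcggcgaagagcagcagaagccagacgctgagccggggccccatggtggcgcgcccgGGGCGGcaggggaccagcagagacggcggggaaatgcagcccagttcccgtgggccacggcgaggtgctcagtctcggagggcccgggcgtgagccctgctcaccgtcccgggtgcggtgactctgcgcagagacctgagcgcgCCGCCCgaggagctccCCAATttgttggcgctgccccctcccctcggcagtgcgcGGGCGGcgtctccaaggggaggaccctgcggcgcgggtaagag
Col4a6: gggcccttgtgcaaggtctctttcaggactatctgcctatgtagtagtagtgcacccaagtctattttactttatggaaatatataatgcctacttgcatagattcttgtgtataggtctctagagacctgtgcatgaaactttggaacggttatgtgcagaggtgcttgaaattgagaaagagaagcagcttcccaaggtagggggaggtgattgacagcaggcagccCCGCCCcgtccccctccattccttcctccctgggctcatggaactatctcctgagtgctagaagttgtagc
Col4a5: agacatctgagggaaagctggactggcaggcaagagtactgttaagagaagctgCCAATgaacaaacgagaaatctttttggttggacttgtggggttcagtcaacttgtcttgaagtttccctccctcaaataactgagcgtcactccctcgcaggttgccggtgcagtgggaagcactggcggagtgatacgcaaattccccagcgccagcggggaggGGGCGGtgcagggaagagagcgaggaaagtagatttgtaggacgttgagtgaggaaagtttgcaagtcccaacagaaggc
Col1a2: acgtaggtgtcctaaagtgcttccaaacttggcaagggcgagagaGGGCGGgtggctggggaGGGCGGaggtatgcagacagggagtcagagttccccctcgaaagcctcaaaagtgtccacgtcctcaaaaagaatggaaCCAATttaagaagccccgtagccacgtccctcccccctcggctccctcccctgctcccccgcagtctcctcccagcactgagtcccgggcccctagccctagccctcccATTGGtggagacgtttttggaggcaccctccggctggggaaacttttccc
Col3a1: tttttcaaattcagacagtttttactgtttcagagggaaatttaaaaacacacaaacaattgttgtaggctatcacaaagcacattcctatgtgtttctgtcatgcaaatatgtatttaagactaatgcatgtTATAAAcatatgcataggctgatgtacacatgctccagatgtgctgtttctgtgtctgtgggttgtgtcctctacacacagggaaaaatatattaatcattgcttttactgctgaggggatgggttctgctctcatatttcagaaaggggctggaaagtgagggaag
Col24a1: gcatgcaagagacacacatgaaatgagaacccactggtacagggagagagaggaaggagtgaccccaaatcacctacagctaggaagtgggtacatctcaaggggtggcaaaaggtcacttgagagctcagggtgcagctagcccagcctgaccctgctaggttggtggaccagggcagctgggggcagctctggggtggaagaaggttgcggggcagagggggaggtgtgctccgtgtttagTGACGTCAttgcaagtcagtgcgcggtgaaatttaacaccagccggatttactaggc

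The start sites of Col4a1 and Col4a2 lay 21 bases apart on opposite strands, so their windows share 78 bases, read as reverse complements. Their windows held 74.0% and 73.7% G and C, against a median of 52.7% over all 32851 windows, and 37 and 33 CpG dinucleotides, against a median of 7. The GC box near the right-hand end of both lines is the same stretch of DNA. Col4a6 and Col4a5 start 1343 bases apart, share no bases here, and held 48.3% and 52.7% G and C. The Col3a1 window held 37.7% G and C, no CpG and 1 TATA box, which began at position −117, counting the start site as 0. CCAAT was found in 14 of the 42 member windows (37.4% of all windows), the GC box in 25 (35.7%) and the TATA box in 5 (13.6%). The AP-1 letters were found in 1 member window, that of Col6a1 (7.81% of all windows), and the cAMP response element in 1, that of Col24a1 (1.79%), where it ended at the start site. These are matches of letters and not measured sites.

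The deposited values were log2 intensities from 3.32 to 15.53, with array medians from 6.14 to 6.27. Pearson's r over probe sets was 0.991 to 0.996 within groups and 0.943 to 0.979 across them. Both cell types of the complex were present in the no hCG arrays by their markers. The mean log2 level per array was 10.05 to 10.19 for the oocyte list and 10.18 to 10.26 for the granulosa and cumulus list. At 8 h the oocyte list stood at 8.09 to 8.16, and 13 of its 13 tested genes were called lower. That is 100%, beside 20.5% of all tested genes called lower by then. The granulosa and cumulus list stood at 10.71 to 10.95 at 8 h and 10.21 to 10.39 at 16 h. Of its 14 genes, 4 were higher and 6 lower by 8 h, and 4 higher and 9 lower by 16 h. The shares called were 71.4% and 92.9%, beside 37.4% and 41.6% of all tested genes. Its median log2 change was −0.42 and −0.67, so the list mean does not stand for most of its genes. In such bulk RNA, fewer cells of a type and less RNA per cell cannot be told apart. Levels were compared only within a probe set, since brightness differs between probe sets for reasons other than the amount of RNA. Changes are differences of log2 group means ± SE from limma with n = 2 arrays per group, and a gene, represented by its brightest probe set, was called at an adjusted p under 0.05.

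By 8 h, 18 of the 39 tested chains had changed, 9 upward and 9 downward. That is 46.2%, against 37.4% of all 13559 tested genes, of which 16.9% rose and 20.5% fell. The changes of at least 2-fold numbered 6 up and 5 down. From 8 h to 16 h, 8 chains rose and 5 fell, which is 33.3% against 20.9% of all genes (11.8% up and 9.12% down). Between no hCG and 16 h, 10 rose and 9 fell, or 48.7% against 41.6% (20.8% in each direction). By probe set, 25, 22 and 30 of 57 were called, or 43.9%, 38.6% and 52.6%, against 33.9%, 18.2% and 37.3% of all 27022. The median log2 change of the chains was −0.10, −0.06 and −0.12 in these comparisons, and that of all genes −0.02, 0.01 and −0.02. Calls within the family went both ways, and its types differed in direction. Over all 101 probe sets with no filter, the shares called were 27.7%, 21.8% and 34.7%, beside 21.7%, 11.2% and 23.9% of all 45037. The middle comparison rested most on single arrays: in place of its 13 called genes there were 7 on omitting the first 16 h array and 6 on omitting the second. By probe set its 22 calls became 13 on omitting either 8 h array, and 12 and 11 on omitting the first and the second 16 h array. On omitting 8 h array 1, the genes called by 8 h numbered 12, of which 5 were lower in place of 9. The 3 comparisons share arrays and are not independent.

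**Figure D1:**
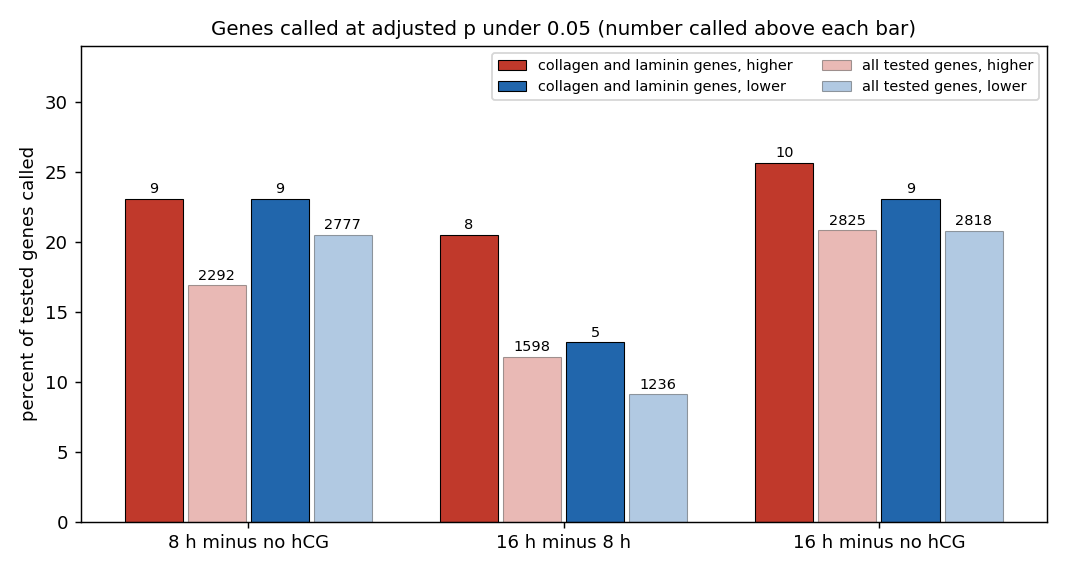
Percent of tested genes called higher or lower in each comparison, for collagen and laminin chains (39 genes) and all tested genes (13559), with the number called above each bar. The chains were called in both directions in every comparison.

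In type IV collagen a rise was called in the alpha 1 and alpha 2 chains and in neither of the 2 other chains tested. Both together make the most widespread basement membrane collagen. Col4a2 was 7.25 and 8.11 in the no hCG arrays, 10.29 and 10.67 at 8 h and 11.39 and 11.49 at 16 h, on the log2 scale. Each hCG array lay far above both arrays without it. The rise by 8 h was 2.80 ± 0.26 (6.95-fold, adjusted p = 3.35e-05) and by 16 h 3.76 ± 0.26 (13.5-fold, adjusted p = 4.26e-06), which was the largest change of the 39 tested chains in that comparison. Col4a1 was 9.20 and 10.05, then 12.08 and 12.67, then 13.14 and 13.44. Its groups did not overlap either, and the no hCG arrays were the more spread pair for both genes. The Col4a1 rise was 2.75 ± 0.29 by 8 h (6.72-fold, adjusted p = 6.58e-05) and 3.66 ± 0.29 by 16 h (12.6-fold, adjusted p = 9.01e-06).

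The further step from 8 h to 16 h was smaller for both and lay near the threshold. For Col4a2 it was 0.96 ± 0.26 (adjusted p = 0.0314), with adjusted p = 0.0508 with no filter and, with 1 array left out, 0.206 and 0.0509 without the first and the second 8 h array and 0.144 and 0.185 without the first and the second 16 h array. For Col4a1 it was 0.91 ± 0.29 and was not called (adjusted p = 0.0565), though it was called under 8 of 15 alternatives (lowest adjusted p = 0.00589, highest 0.354), among them the omission of 8 h array 2 (1.21, adjusted p = 0.0461) or of either no hCG array (adjusted p = 0.00828). Its second probe set, at 8.35 and 8.83, then 10.46 and 10.59, then 11.26 and 11.57, was called higher in that step (0.88 ± 0.20, adjusted p = 0.0129).

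The other type IV chains, which form the specialised networks of kidney, lung and smooth muscle basement membranes, did not share this course. Col4a5 was 8.86 and 9.85 without hCG, 8.63 and 8.89 at 8 h and 8.87 and 9.20 at 16 h. Its groups overlapped, and it was not called, with −0.60 ± 0.29 at 8 h (adjusted p = 0.146). Without replicate 1 of the no hCG group, the lower of that pair, this became −1.09 (adjusted p = 0.00229). Col4a6, its head-to-head neighbour, was 7.08 and 7.07, then 6.60 and 6.78, then 6.48 and 6.82. Its change by 16 h was −0.43 ± 0.17 (adjusted p = 0.0794), whereas a second probe set was called lower (−0.86 ± 0.18, adjusted p = 0.00421), as was the mean of both (−0.64, adjusted p = 0.0111). Col4a3 and Col4a4, neighbours on chromosome 1, were too dim to be tested.

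With no filter on dim probe sets, some of the probe sets of both were called lower. The brightest Col4a4 probe set was 6.07 and 6.44 without hCG, 4.81 and 4.99 at 8 h and 4.76 and 4.93 at 16 h, a change of −1.36 ± 0.17 by 8 h (adjusted p = 0.000447). Values at 8 h and 16 h lay under the limit of 5.62 and those without hCG above it, so the size of the fall is uncertain. A second Col4a4 probe set fell by 1.28 on the log2 scale whereas another was flat (4.83 and 4.67 without hCG, 4.74 and 4.84 at 8 h). The brighter Col4a3 probe set was 5.39 and 5.46, then 4.89 and 5.04, then 4.81 and 5.24, and was not called (−0.46 ± 0.17 by 8 h, adjusted p = 0.0906, and −0.40 ± 0.17 by 16 h, adjusted p = 0.139). The dimmer one, which was called, was 5.16 and 5.05, then 4.21 and 4.38, then 4.23 and 4.28 (−0.81 ± 0.13 by 8 h, adjusted p = 0.0026). Those 2 dim genes are described because their values stood out after being seen.

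Endothelial cells also make much type IV collagen. Of 11 endothelial markers 6 were bright enough to test, and 1 of them, Cdh5, which encodes VE-cadherin, was called higher at 8 h (2.86 ± 0.25) and 0 lower. The Cdh5 mean was 5.48 without hCG, under the limit of 5.62, and 8.34 at 8 h. Cdh5 thus passed the filter through its hCG arrays, and the size of its rise is uncertain. By 16 h, 2 were higher, Cdh5 (2.96 ± 0.25) and the VEGF receptor gene Kdr (0.49 ± 0.15, adjusted p = 0.0244), and 1 was lower, Egfl7 (−0.50 ± 0.18, adjusted p = 0.0492). The shares called were 16.7% by 8 h and 50% by 16 h, beside 37.4% and 41.6% of all genes. The Egfl7 call was lost when only the compared groups were fitted (adjusted p = 0.077). It was lost as well when no hCG array 1 (−0.34), 16 h array 1 (−0.39) or 16 h array 2 (−0.615) was omitted. That of Kdr, named after its values were seen, was lost when only the compared groups were fitted (adjusted p = 0.0556). The same held when no hCG array 1 (0.48), 16 h array 1 (0.51) or 16 h array 2 (0.47) was omitted. Omitting either 8 h array, which this comparison does not use, repeated the fit of the compared groups and is no separate check. Tie1, Tek, Pecam1, Emcn and Vwf were under the limit. The list's mean log2 level per array was 5.93 to 5.94 without hCG, 5.91 to 6.09 at 8 h and 5.88 to 6.09 at 16 h. The part of Cdh5-bearing cells in the rise of Col4a1 and Col4a2 was not tested.

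**Figure D2:**
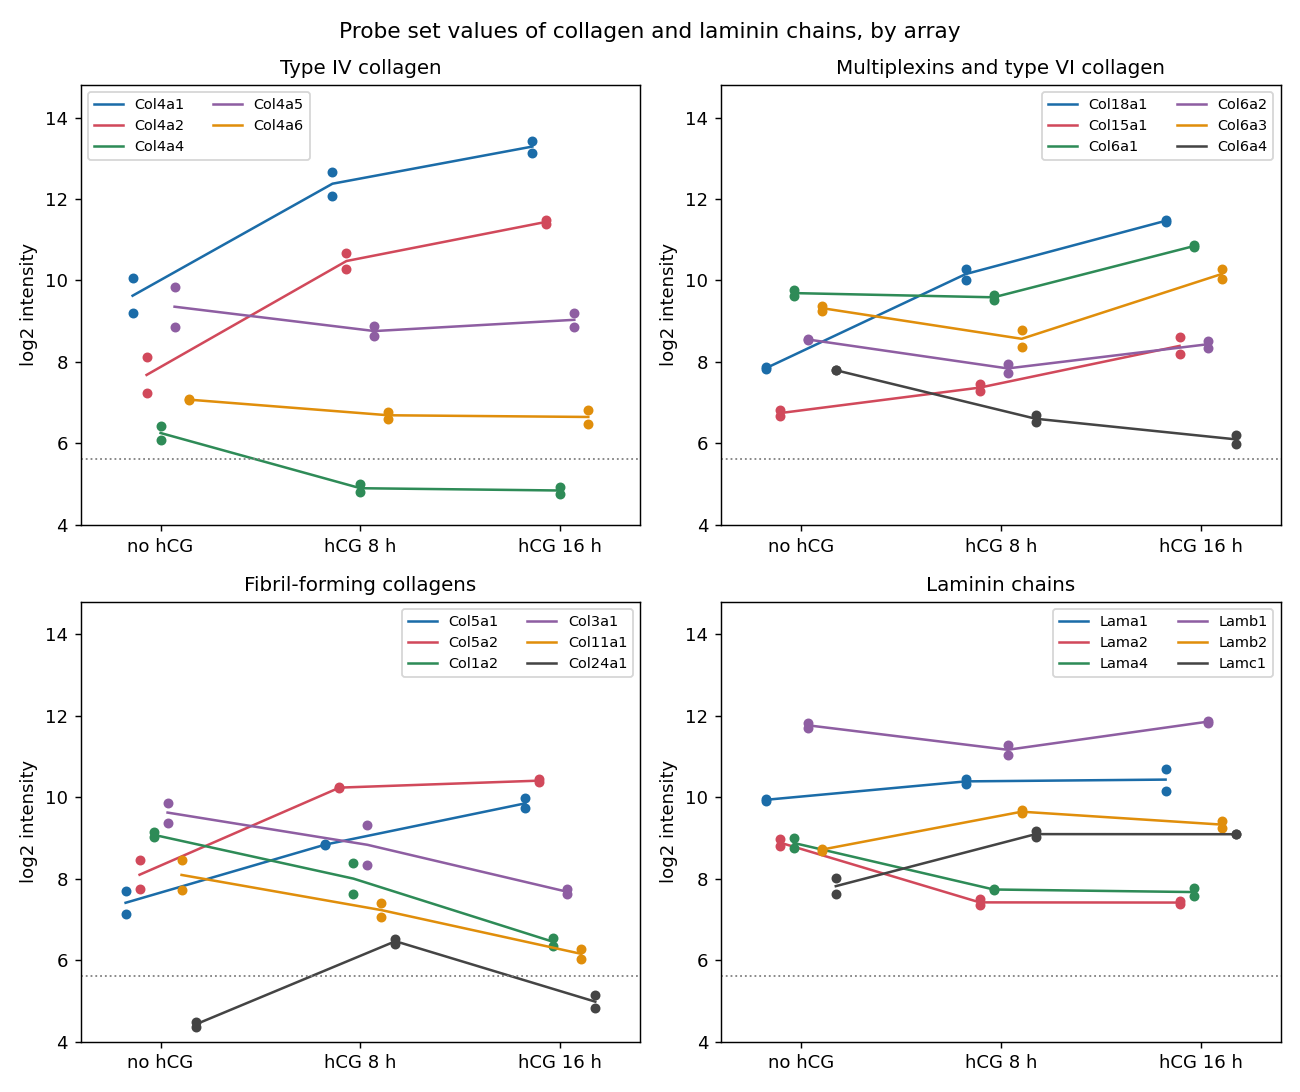
Log2 intensity of each array (points) for the brightest probe set of named chains at no hCG, 8 h and 16 h, with lines through the group means and a dotted line at the limit for testing (5.62). Col4a1, Col4a2, Col18a1 and Col5a1 climb, Col1a2, Col3a1 and Col11a1 descend, and Col6a2, Col6a3 and Lamb1 dip at 8 h.

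The multiplexins, Col18a1 and Col15a1, encode collagens that carry glycosaminoglycan side chains and sit in or beside basement membranes, and their C-terminal fragments are endostatin and its relative. Both rose at each step. Col18a1 was 7.82 and 7.88 without hCG, 10.02 and 10.29 at 8 h and 11.44 and 11.49 at 16 h. Its pairs were tight, and it had the smallest adjusted p of all 39 chains by 8 h (2.31 ± 0.16, 4.96-fold, adjusted p = 5.35e-06). It rose by a further 1.31 ± 0.16 to 16 h (adjusted p = 0.000423), and ended 12.3-fold above no hCG. Its second probe set gave 2.25 ± 0.15 and 1.23 ± 0.15. Col15a1 was 6.82 and 6.66, then 7.29 and 7.45, then 8.60 and 8.18. Its larger step was the later one (1.02 ± 0.18, adjusted p = 0.00376). The earlier step (0.63 ± 0.18, adjusted p = 0.024) was lost when no hCG array 2 (adjusted p = 0.071), 8 h array 1 (0.0685) or 8 h array 2 (0.156) was omitted.

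Among laminins, 2 of the 5 alpha chains, which carry the main cell-binding domains, were called lower by 8 h and by 16 h, and 0 were called higher. That is 40% at each time, near the 37.4% and 41.6% of all genes. Lama2 was 8.80 and 8.98 without hCG, 7.50 and 7.34 at 8 h and 7.37 and 7.46 at 16 h. Lama4, the alpha chain known from blood vessels and mesenchymal cells, was 8.76 and 9.0, then 7.74 and 7.73, then 7.56 and 7.78. For both genes the no hCG arrays stood clear above all 4 arrays with hCG, and the 8 h and 16 h arrays overlapped. Lama2 fell by 1.47 ± 0.16 at 8 h (2.77-fold, adjusted p = 7.18e-05) and Lama4 by 1.14 ± 0.16 (2.21-fold, adjusted p = 0.000476), with changes of −0.00 ± 0.16 and −0.06 ± 0.16 from then on. Lama1, the alpha chain of early embryonic basement membranes, was 9.91 and 9.96, then 10.33 and 10.45, then 10.16 and 10.70. It was not called (0.45 ± 0.19 at 8 h, adjusted p = 0.106, and 0.50 ± 0.19 at 16 h, adjusted p = 0.0734), though when 16 h array 1 was omitted the latter was 0.77 (adjusted p = 0.0211). Lama5, a common alpha chain of adult epithelia, was 9.04 and 8.45, then 8.52 and 8.66, then 8.24 and 8.72, with overlapping groups and no call. Lama3, an alpha chain of epithelial anchoring laminin, lay between 5.44 and 6.12, close to the limit, and was not called (−0.41 ± 0.19 by 16 h, adjusted p = 0.125; −0.66 when 16 h array 1 was omitted, adjusted p = 0.0385).

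The beta and gamma chains followed other courses. Lamb2 was 8.74 and 8.69 without hCG, 9.61 and 9.68 at 8 h and 9.41 and 9.25 at 16 h. It rose by 0.93 ± 0.15 at 8 h (adjusted p = 0.00104) and was still 0.61 ± 0.15 above no hCG at 16 h (adjusted p = 0.00974), a call that was lost when 16 h array 1 was omitted (0.53, adjusted p = 0.0682). Lamb1, the alternative beta chain, moved the other way at 8 h and came back. It was 11.71 and 11.83, then 11.05 and 11.28, then 11.88 and 11.83. The dip (−0.60 ± 0.16, adjusted p = 0.0151) depended on the probe set, since the other 2 tested gave −0.16 ± 0.17 and −0.39 ± 0.16 and were not called. It was lost as well when 8 h array 1 was omitted (−0.48, adjusted p = 0.148). The return by 16 h was called in all 3 tested probe sets (0.69 ± 0.16, 0.70 ± 0.16 and 0.60 ± 0.17). That call of the brightest was lost when 8 h array 1 was omitted (0.57, adjusted p = 0.155) and without either 16 h array (adjusted p = 0.0869 and 0.0729). Lamc1, the gamma chain shared by most laminins, was 7.62 and 8.01, then 9.02 and 9.17, then 9.10 and 9.09. It rose by 1.28 ± 0.17 at 8 h (2.42-fold, adjusted p = 0.000351) and stayed there. A second Lamc1 probe set changed by 0.31 ± 0.16 and was not called (adjusted p = 0.185), and with the mean of both the change was 0.79 (adjusted p = 0.00173). Lamc3 lay between 5.47 and 6.04 and was not called, and Lamb3 was too dim to be tested.

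Of the 9 tested fibril-forming genes, 2 rose and 2 fell by 8 h, and 2 rose and 4 fell by 16 h. That is 44.4% and 66.7%, beside 37.4% and 41.6% of all genes. The risers were Col5a1 and Col5a2, chains of the minor fibrillar collagen that nucleates fibrils. Col5a2 was 7.75 and 8.45 without hCG, 10.24 and 10.23 at 8 h and 10.44 and 10.38 at 16 h. This rise came by 8 h (2.14 ± 0.22, 4.4-fold, adjusted p = 5.46e-05) with 0.17 ± 0.22 after it. Col5a1 was 7.13 and 7.69, then 8.86 and 8.82, then 9.73 and 9.97. It climbed in both steps, by 1.43 ± 0.20 (adjusted p = 0.000461) and 1.01 ± 0.20 (adjusted p = 0.00726), the second of which was lost when 16 h array 2 was omitted (0.89, adjusted p = 0.0833). Of 3 Col5a1 probe sets, the dimmest was called by 16 h (0.93 ± 0.23) and in neither single step. Col5a3, the third type V chain, lay between 6.07 and 6.51 and was not called.

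The fibrillar chains that fell are major products of fibroblasts and cartilage. Col1a2, the alpha 2 chain of type I collagen, was 9.01 and 9.14 without hCG, 7.62 and 8.38 at 8 h and 6.36 and 6.55 at 16 h. Each group lay wholly under the one before it, and the 8 h arrays were the most spread. The fall was 1.08 ± 0.23 by 8 h (adjusted p = 0.00554; −0.70 when 8 h array 1 was omitted, adjusted p = 0.0473) and 2.63 ± 0.23 by 16 h (6.18-fold, adjusted p = 1.92e-05). A second Col1a2 probe set changed by −0.96 ± 0.30 and −2.38 ± 0.30, both called. Col3a1, the type III chain of reticular fibres, was 9.38 and 9.87, then 8.34 and 9.32, then 7.74 and 7.62. By 16 h it had fallen by 1.94 ± 0.29 (3.85-fold, adjusted p = 0.000588). Its 8 h arrays were nearly 1 log2 unit apart: the change by 8 h was not called (−0.79 ± 0.29, adjusted p = 0.064), but was when 8 h array 2 (−1.28, adjusted p = 0.0052) or no hCG array 1 was omitted (−1.03, adjusted p = 0.0301). The later step (−1.15 ± 0.29, adjusted p = 0.0227) was lost when 8 h array 2 was omitted (−0.66, adjusted p = 0.15) and without either 16 h array (adjusted p = 0.121 and 0.158).

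Col11a1, a cartilage-type fibril chain, was 7.73 and 8.45 without hCG, 7.07 and 7.39 at 8 h and 6.04 and 6.27 at 16 h. It fell by 1.94 ± 0.24 by 16 h (3.83-fold, adjusted p = 0.000162). Both single steps were less secure. That by 8 h (−0.86 ± 0.24, adjusted p = 0.0191) was lost when no hCG array 2 (−0.51, adjusted p = 0.083) or 8 h array 1 was omitted (−0.70, adjusted p = 0.129). The later step (−1.07 ± 0.24, adjusted p = 0.012) was lost when 8 h array 2 was omitted (adjusted p = 0.0913) or either 16 h array (adjusted p = 0.118 and 0.0636). Col27a1, a fibrillar collagen of cartilage, was 8.49 and 8.37, then 8.89 and 8.70, then 7.78 and 7.75, so its fall (−1.03 ± 0.15, adjusted p = 0.00145) came after 8 h. Col1a1, the partner of Col1a2, lay between 5.28 and 5.99, around the limit, and was not called (−0.52 ± 0.21 by 16 h, adjusted p = 0.0817).

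Some markers of theca and stroma other than collagens went down as well. Of 14 such genes 10 were tested, and 4 were called lower and 0 higher by 8 h, and 5 lower and 0 higher by 16 h. The shares called, 40% and 50%, were near the 37.4% and 41.6% of all genes, of which 20.5% and 20.8% were called lower. Cyp17a1, the androgen-making enzyme of theca cells, was 9.35 and 8.63 without hCG, 6.63 and 6.75 at 8 h and 6.15 and 5.90 at 16 h. Decorin (Dcn), which binds collagen fibrils, fell by 1.73 ± 0.19 by 16 h. Ogn, Thy1, Lum and Myh11 were under the limit. The mean log2 level of the list per array went from 6.92 to 6.94 without hCG to 6.31 to 6.45 at 8 h and 6.03 to 6.08 at 16 h. The oocyte list fell by 8 h, as given above, in the same interval as the 9 chains called lower then. Its mean was 8.05 to 8.30 at 16 h. From 8 h to 16 h, 6 of its 13 tested genes were called higher and 4 lower, or 76.9% beside 20.9% of all genes. In that step Lama2, Lama4, Col6a4 and Col9a2, among those 9 chains, were not called. The part of theca, stroma or oocytes in the falls of the chains was not tested.

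Of the 4 tested chains of type VI collagen, the beaded filament around cells, 0 rose and 3 fell by 8 h. That is 75% called, beside 37.4% of all genes. Col4a1, Col4a2, Col5a1 and Col5a2 had risen by then. Col6a3 was 9.38 and 9.26 without hCG, 8.36 and 8.78 at 8 h and 10.03 and 10.28 at 16 h. It dipped by 8 h (−0.75 ± 0.19, adjusted p = 0.0112; −0.54 when 8 h array 1 was omitted, adjusted p = 0.122) and then rose by 1.59 ± 0.19 (3.01-fold, adjusted p = 0.000342), which was the largest rise of the 39 tested chains in that step. At 16 h it was 0.84 ± 0.19 above no hCG (adjusted p = 0.00589; 0.71 when 16 h array 2 was omitted, adjusted p = 0.0612). Col6a1 was 9.76 and 9.62, then 9.53 and 9.65, then 10.82 and 10.87. It held level to 8 h (−0.10 ± 0.15, not called) and rose by 1.26 ± 0.15 after it (2.39-fold, adjusted p = 0.000405). Col6a2, beside Col6a1 on chromosome 10, was 8.54 and 8.57, then 7.74 and 7.95, then 8.35 and 8.52. It fell by 0.71 ± 0.16 on the log2 scale (adjusted p = 0.00637; lost when 8 h array 1 was omitted, 0.0752) and rose by 0.59 ± 0.16 (adjusted p = 0.0279). That return was lost without the first or the second 8 h array (adjusted p = 0.241 and 0.0769) or 16 h array (adjusted p = 0.0764 and 0.158), and a second probe set was not called in any comparison. Col6a4, a chain that can take the place of Col6a3, was 7.80 and 7.79, then 6.69 and 6.52, then 6.0 and 6.21. It fell by 1.19 ± 0.16 by 8 h (adjusted p = 0.000299) and was 1.70 ± 0.16 below no hCG at 16 h (3.24-fold, adjusted p = 2.66e-05).

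Leukocyte markers rose in the same interval as Col6a1 and Col6a3. From 8 h to 16 h, 12 of 15 tested were called higher and 0 lower, among them Lyz2, lysozyme of myeloid cells (3.32 ± 0.26), and Ptprc, the CD45 gene (2.58 ± 0.24). The mean log2 level of the leukocyte list per array was 6.67 to 6.84 without hCG, 6.73 to 6.84 at 8 h and 8.28 to 8.30 at 16 h. Some epithelial genes went up in that interval too. The oviduct gene Ovgp1 rose by 3.85 ± 0.50, with means of 8.74 without hCG, 7.88 at 8 h and 11.73 at 16 h. From the ovarian surface list, the keratin genes Krt18 and Krt8 rose by 3.22 ± 0.21 and 2.44 ± 0.15, the latter after a fall of 0.94 on the log2 scale by 8 h. Upk3b of the same list went the other way, by −0.89 in that interval and −1.89 by 16 h against no hCG, to a mean of 4.77, under the limit. For 9 oviduct genes, list means per array were 6.24 to 6.26 at 8 h and 6.89 to 6.93 at 16 h, with 2 of 5 tested called higher. For 7 surface epithelium genes they were 6.46 to 6.55 and then 7.39 to 7.44, with 3 of 5 higher and 1 lower. The shares called were 40% and 80%, beside 20.9% of all genes. The part of any of these cells in the 16 h levels of the chains was not tested.

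**Figure D3:**
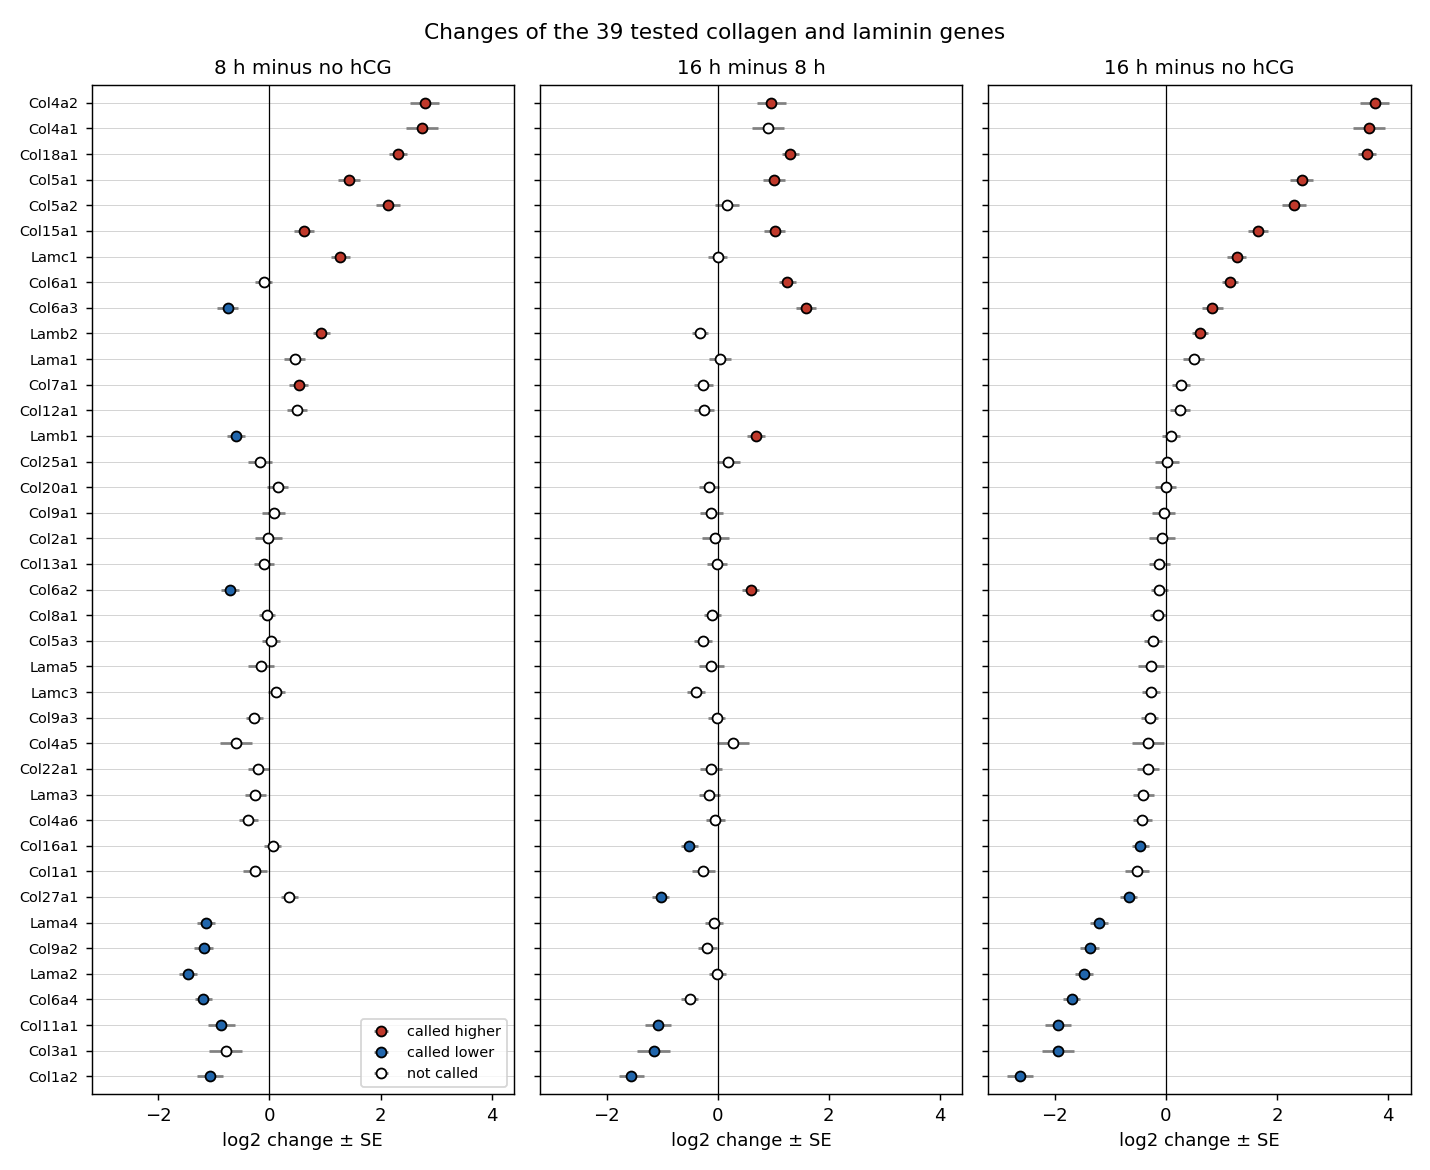
Log2 change ± SE of the 39 tested chains in the 3 comparisons, each by its brightest probe set with n = 2 arrays per group. Filled points are called higher or lower and open points are not called. Col4a2, Col4a1 and Col18a1 lie farthest to the right at 16 h against no hCG, and Col1a2 farthest to the left.

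The remaining classes had few calls by the brightest probe set of each gene. Of 7 tested FACIT collagens, which decorate fibrils, 0 rose and 1 fell by 8 h, and 0 rose and 2 fell by 16 h. That is 14.3% and 28.6%, beside 37.4% and 41.6% of all genes. Col9a2 fell by 1.18 ± 0.17 at 8 h (adjusted p = 0.000453), from 6.54 and 6.67 to 5.55 and 5.29, and was 5.12 and 5.35 at 16 h, all 4 of these under the limit. Col16a1 was 7.84 and 7.78, then 7.97 and 7.77, then 7.38 and 7.33, with a late change of −0.52 ± 0.15 (adjusted p = 0.0436). That call was lost on omitting any 1 of the 8 h and 16 h arrays (adjusted p = 0.112 to 0.324), with arrays centred on their medians (0.06) and with a trended, robust fit (0.0645). Col7a1, the anchoring fibril chain, was 6.70 and 6.78, then 7.19 and 7.35, then 6.86 and 7.16. Its rise at 8 h (0.53 ± 0.17, adjusted p = 0.0354) was lost when no hCG array 1 (0.0952), 8 h array 1 (0.0911) or 8 h array 2 (0.223) was omitted. The transmembrane and short-chain network collagens had 2 and 1 tested genes and no call, with changes from −0.17 to 0.19.

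A few chains differed between their probe sets or were too dim, and are singled out after their values were seen. Of 16 chains with 2 or more tested probe sets, calls differed between them in 7 by 8 h, in 4 from 8 h to 16 h and in 4 by 16 h, and in none of these did a tested probe set have the opposite sign to the brightest. Col12a1 differed most. Its brightest probe set was 7.59 and 7.14, then 7.89 and 7.83, then 7.57 and 7.65, and was not called (0.49 ± 0.18 at 8 h, adjusted p = 0.0596). Another Col12a1 probe set went from 4.78 and 4.98 to 7.14 and 8.11 and then 7.15 and 7.61, a rise of 2.75 ± 0.29 at 8 h (adjusted p = 6.81e-05). Its no hCG values lay under the limit of 5.62, so it passed the filter through its hCG arrays. The size of this rise is uncertain. For Col25a1, a transmembrane collagen of neurons, the brightest probe set was not called, and another was 5.24 and 5.61, then 5.64 and 5.92, then 6.86 and 7.16 (1.58 ± 0.19 by 16 h, adjusted p = 0.000152). The no hCG values of that probe set also lay under the limit, so the size of its rise is uncertain too.

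Col24a1, a fibrillar collagen, was under the limit by its mean and so was not tested. The arrays were at 4.36 and 4.49 without hCG, 6.41 and 6.52 at 8 h and 4.82 and 5.14 at 16 h. Both 8 h arrays stood above the other 4 and above the limit. With no filter the rise was 2.04 ± 0.15 (adjusted p = 3.11e-05) and the fall after it 1.48 ± 0.15 (adjusted p = 0.000448), which left it 0.56 ± 0.15 above no hCG at 16 h (adjusted p = 0.0279). The other 10 genes too dim to be tested, Col4a3 and Col4a4 aside, had differences of group means from −0.34 to 0.18 by 8 h, from −0.32 to 0.12 after it and from −0.37 to 0.23 by 16 h.

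Genes that work with these chains were taken by list. Of 16 tested basement membrane partners, 6 rose and 4 fell by 8 h, and 6 rose and 3 fell by 16 h. That is 62.5% and 56.2%, beside 37.4% and 41.6% of all genes, with a median change near that of all genes (−0.05 and 0.03). Sparc, which binds collagen, rose by 2.09 ± 0.17 at 8 h, and fibronectin (Fn1) by 1.69 ± 0.19 then and 3.04 ± 0.19 by 16 h. Nid1, the linker of laminin to type IV collagen, was 7.44 and 8.37 without hCG, 9.11 and 9.38 at 8 h and 9.82 and 10.05 at 16 h (1.34 ± 0.27, adjusted p = 0.0039, and 2.03 ± 0.27, adjusted p = 0.000272). Perlecan (Hspg2) was not called (−0.06 ± 0.24 at 8 h). After 8 h, Ntn4, a laminin-related netrin, rose by 2.69 ± 0.18 and Tinagl1 by 2.50 ± 0.23, the latter after a rise of 1.32 ± 0.23 by 8 h. Smoc2, a calcium-binding matrix protein, fell by 2.09 ± 0.16 by 16 h (−1.19 with the mean of its probe sets) and its relative Smoc1 by 0.61 ± 0.15, the latter lost when 16 h array 1 was omitted (adjusted p = 0.079). Nid1 and Hspg2 were named for their role, after their values were seen.

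Of 19 tested genes of collagen modification and folding in the endoplasmic reticulum, 4 rose and 2 fell by 8 h, and 9 rose and 0 fell from 8 h to 16 h. These are 31.6% and 47.4%, beside 37.4% and 20.9% of all genes. By 16 h, 12 rose and 1 fell, or 68.4% beside 41.6% of all genes, with a median change of 0.64 beside −0.02 for all genes. P3h2, a prolyl 3-hydroxylase, rose by 2.18 ± 0.17 after 8 h, and P4ha2, a catalytic prolyl 4-hydroxylase subunit, by 1.25 ± 0.15 after a fall of 0.70 ± 0.15 by 8 h. Creb3l1, a transcription factor that turns on collagen secretion genes, rose by 2.16 ± 0.20 by 16 h. The exception was Colgalt2, a collagen galactosyltransferase, which fell by 2.87 ± 0.23 by 16 h.

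Of 9 tested genes of processing and cross-linking outside the cell, 6 rose and 1 fell by 8 h and by 16 h, or 77.8% at each time beside 37.4% and 41.6% of all genes, and the median change was 1.25 and 2.39. Lysyl oxidase (Lox), which cross-links collagen and elastin, was 8.65 and 8.56 without hCG, 11.92 and 12.12 at 8 h and 12.96 and 12.99 at 16 h. Its rise was 3.41 ± 0.15 by 8 h (adjusted p = 6.46e-07). Loxl3, of the same enzyme family, rose by 2.30 ± 0.15 by 8 h. Loxl1, another relative, went the opposite way, from 9.82 and 9.35 to 7.53 and 7.48 and then 6.52 and 6.49. Its change by 16 h was −3.09 ± 0.18 (adjusted p = 1.49e-06). Transglutaminase Tgm2 and the procollagen C-proteinase enhancer Pcolce rose after 8 h, by 2.93 ± 0.22 and 1.91 ± 0.22, and Tgm2 had already risen by 1.70 ± 0.22 by 8 h. Adamts3, a procollagen N-proteinase, rose by 1.54 ± 0.19 by 8 h and fell by 1.53 ± 0.19 after it. At 16 h it was 0.02 ± 0.19 from no hCG and not called (adjusted p = 0.956). The Adamts3 mean was 6.82 at 8 h and 5.29 at 16 h, the latter under the limit for testing, as was that without hCG. Adamts3 thus passed the filter through its 8 h arrays, and the sizes of its rise and fall are uncertain.

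Of 14 tested receptors for collagen and laminin, 5 rose and 3 fell by 8 h, and 8 rose and 2 fell by 16 h, which is 57.1% and 71.4% beside 37.4% and 41.6% of all genes. From 8 h to 16 h, 2 rose and 1 fell, or 21.4% beside 20.9%. Itga2, whose integrin binds collagen, was 7.01 and 6.88 without hCG, 9.21 and 9.38 at 8 h and 8.22 and 8.35 at 16 h. It peaked at 8 h (2.35 ± 0.16, adjusted p = 4.41e-06) and fell by 1.01 ± 0.16 after it. Its partner Itgb1 rose by 1.32 ± 0.20 by 8 h. Itga6, whose integrins bind laminin, had the reverse course, at 10.57 and 10.96, then 8.90 and 9.07, then 9.78 and 10.04. It fell by 1.78 ± 0.19 and then rose by 0.92 ± 0.19 (adjusted p = 0.00723), a return lost when 8 h array 1 (adjusted p = 0.0711) or 16 h array 2 was omitted (0.0796). After 8 h Itga1, another collagen-binding chain, rose by 1.39 ± 0.20. Mrc2, which takes up collagen fragments, fell by 0.54 ± 0.17 by 8 h (adjusted p = 0.0299), a call lost when no hCG array 1 (0.097), 8 h array 1 (0.166) or 8 h array 2 (0.106) was omitted.

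**Figure D4:**
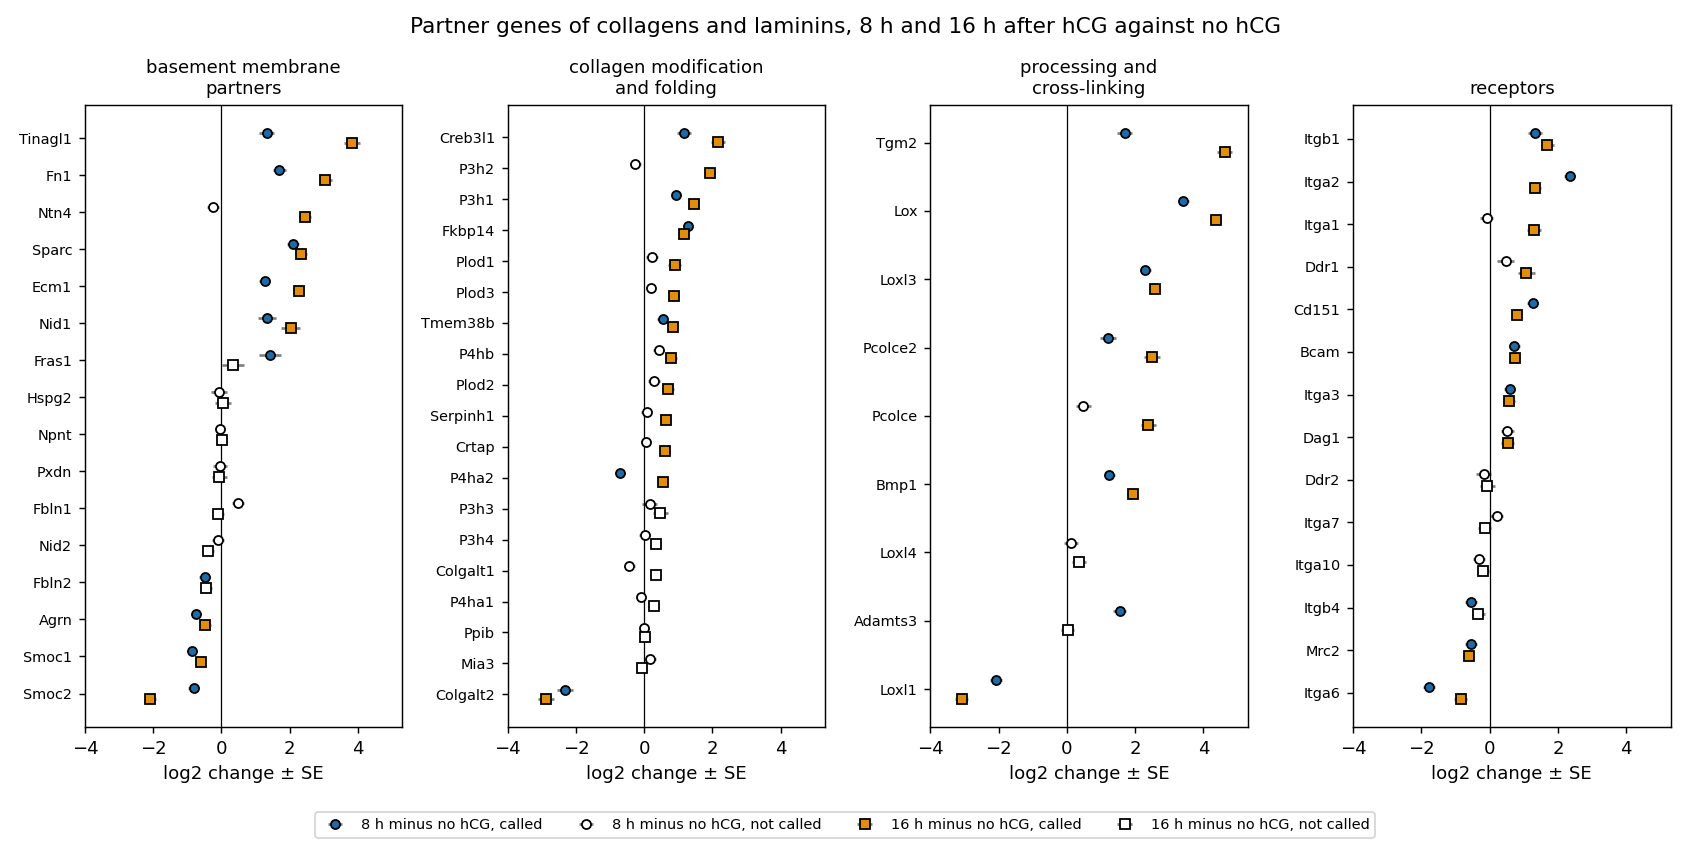
Log2 change ± SE of each tested partner gene at 8 h (circles) and 16 h (squares) against no hCG, in 4 lists, with filled symbols for called changes and n = 2 arrays per group. Lox and Tgm2 lie farthest to the right and Loxl1 and Colgalt2 farthest to the left.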

How the data were processed

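The deposited table held 1 log2 intensity per probe set for each of the 6 arrays, as the authors made it. That the scale is log2 was read from the values; the software, background correction and normalization are not given in the sources used here, and no detection calls were used. Values were used as deposited. Gene names came from the platform annotation, and probe sets with several symbols were not used. Of 45037 probe sets without controls, those with a mean under the 40th percentile (5.62) were not tested. Group means were fitted to the 27022 others in R 4.3.3 by limma 3.58.1 (functions lmFit, eBayes; 3 residual and 6.43 prior degrees of freedom). P-values were two-sided and adjusted by Benjamini-Hochberg over those probe sets in each comparison, and calls were made at 0.05. The fit was tested on simulated data. All type IV and laminin chains were named, and in other classes up to 3 called chains per comparison with the largest change; lists gave up to 2 called genes per direction. Members and lists were chosen with earlier results of these data known. With 15 alternatives, normalization, filter, probe set rule, samples, block, variance model and single arrays were varied. The number of arrays limits the precision. Motifs were searched in RefSeq windows on both strands.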

Additional observations from a re-analysis of the deposited data

How the results depend on the processing

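Among the changes of chains named by rule, 48 were called, 32 of them under every alternative that gave a value, and 16 were lost under 1 or more. Col27a1, named beyond that rule, is not among them, and its calls were not followed through the alternatives. There were 15 alternatives, or 14 for 7 chains that the stricter dim filter or the probe set rule removed, and 13 for Lama3. Another 33 were not called, and 9 of these were called under 1 or more. No called change reversed. In each comparison, omitting either array of the group not compared repeated the fit of only the compared groups, so those alternatives are not separate checks. Leaving out 1 array, the chains called ranged from 12 to 20 by 8 h, from 6 to 15 from 8 h to 16 h and from 17 to 19 by 16 h; by probe set the ranges were 17 to 29, 11 to 25 and 27 to 32. With 1 array left in a group, it was assumed to vary like the other groups. Outside these omissions, each total count stayed within 1.5 times its main value. No label states whether replicate numbers pair the arrays, and the main fit took the arrays as unpaired. Deviations of same-numbered arrays correlated unevenly, at 0.468 (no hCG and 8 h), 0.001 (no hCG and 16 h) and 0.135 (8 h and 16 h). With the number as a replicate block, 21, 15 and 20 chains (29, 24 and 32 probe sets) were called. Among those gained by 8 h were the falls of Col3a1 (adjusted p = 0.0291) and Col4a5 (adjusted p = 0.0426). With no detection calls, the signal over background is unknown, so changes that involve values near 5.62 may be understated.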
